A study of Homo sapiens with 27 samples.

Results

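Asparagine, glutamine and glutamate are linked by a small set of enzymes, and the RNA of 7 of them was followed here: ASNS, ASRGL1, GLUL, GLUD1, GOT1, GOT2 and GPT2. They were taken by gene symbol from a table of 21487 genes, all 7 had a row of counts, and all 7 were among the 13943 genes with enough counts to be tested. The cells were Panc1, an established line from a human pancreatic ductal adenocarcinoma. The genotypes compared were Parental cells and the knockout lines ARNT KO Clone A and ARNT KO Clone B, which are called clone A and clone B below. ARNT encodes the subunit that pairs with HIF1A and EPAS1 to form the hypoxia-inducible factors. Each clone is a single line made with CRISPR-Cas9, so a difference between 1 clone and the parental cells cannot be told apart from a difference of that clone alone. Each genotype was kept for 48 hours under 3 conditions. These were normoxia (20% O2) in regular medium (DMEM with 10% FBS and 1% P/S), hypoxia (1% O2) in the same medium, and hypoxia (1% O2) in TIFM, a medium built on the nutrient content of the fluid around pancreatic tumours. TIFM was given in hypoxia and not in normoxia. The stated question of the study is what ARNT does to the hypoxic response.

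ASNS, asparagine synthetase, makes asparagine from aspartate and takes the amino group from glutamine, which leaves glutamate. ASRGL1 is an asparaginase that releases aspartate from asparagine. GLUL, glutamine synthetase, joins ammonia to glutamate to make glutamine. GLUD1, glutamate dehydrogenase of the mitochondrion, interconverts glutamate and 2-oxoglutarate. GOT1 in the cytosol and GOT2 in the mitochondrion are the aspartate aminotransferases, and they also serve the malate-aspartate shuttle, which carries reducing equivalents into the mitochondrion. GPT2 is the mitochondrial alanine aminotransferase. When amino acids run short or the endoplasmic reticulum is stressed, cells raise translation of the transcription factor ATF4, and ASNS is a textbook target of that response.

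There were 9 groups of 3 libraries of polyA RNA. Total counts ran from 26057022 to 38341713 per library (median 31727174). Whether the replicates of a group came from separate cultures is not stated in the labels, and p-values therefore cover the spread of these libraries, which may be technical. In bulk RNA, fewer cells of a kind and less RNA per cell cannot be told apart. ARNT RNA itself in normoxia stood at 71.2 ± 3.62 CPM in the parental line, at 75.5 ± 2.19 CPM for clone A and at 63.9 ± 1.44 CPM for clone B (mean ± SD, n = 3), and neither clone passed the threshold against the parental line there (adjusted p 0.498 and 0.199) or in hypoxia (0.611 and 0.217). In TIFM ARNT RNA was lower in both clones (log2 difference -0.21, adjusted p 0.0407, and -0.39, adjusted p 6.27e-04). Of 10 HIF targets used as a readout, such as VEGFA and CA9, 10 rose in hypoxia in parental cells, and 10 were lower in each clone than in parental cells in hypoxia. Within the clones 6 of the 10 still rose in hypoxia in clone A and 7 in clone B, with median log2 changes of 0.43 and 0.78 against 2.79 in parental cells. All 7 epithelial and Panc1 markers (KRT8, KRT18, KRT19, KRT7, EPCAM, VIM and MUC1) were expressed, with a summed level of 2722 to 13403 CPM per library. Of 13 markers of immune, endothelial, fibroblast, endocrine and acinar cells, 8 stayed under 1 CPM in every group (PTPRC, CD3E, VWF, CDH5, INS, GCG, PRSS1 and CPA1) and INS was at 0. The sum of the 13 ran from 117 to 1034 CPM and was highest in clone B in normoxia, where COL1A1 made up 876 CPM.

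The promoter of ASNS is the best described of the 7, because a pair of short elements upstream of its start is known to carry its response to amino acid shortage. The RefSeq promoter windows (GRCh38.p14, the 250 bases before each annotated start) covered 6 of the 7 genes, the exception being GPT2. They were searched on both strands for TGATGNAA, the letters of the core of an ATF4 site, and for GTTACA, the letters of the other ASNS element. Both were found in the first ASNS window, 68 and 48 bases before the start, at chr7:97872449-97872478 on the minus strand. Among the other windows searched, TGATGNAA was found in that of GOT1 only, as its reverse complement and 198 bases before the start, at chr10:99430804-99430833 on the minus strand. The stretches of 30 bases are shown because ASNS is the gene of this set that moved most, and capitals mark the matched letters.
ASNS: caTGATGAAActtcccgcacgcGTTACAgg
GOT1: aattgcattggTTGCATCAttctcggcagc
Both stretches also lie in exons of longer transcripts of the same genes in GENCODE v29. Of 35116 promoter windows of the same length, 3.14% held TGATGNAA and 5.59% held GTTACA. The HIF core letters ACGTG were found in the GOT2 window alone of the 6 genes, 54 bases before its start, and 18.5% of all windows held them. GCGTG was found in windows of all 6 genes, and 32.2% of all windows held it. GCGTG and ACGTG do not overlap each other in these windows. A match describes the letters and is not evidence that a factor binds there.

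ASNS (ENSG00000070669; GRCh38 chr7:97852118-97872542, minus strand) varied most of the 7 enzymes, by 21.7-fold between the lowest and the highest group mean. Levels are given as CPM, which sets each gene's counts against the TMM-scaled library total, in the order of replicates 1, 2 and 3. Parental cells held 96.9, 115 and 89.2 CPM in normoxia, 313, 279.8 and 338 in hypoxia and 977, 1064 and 966 in hypoxia with TIFM. Clone A held 603, 596 and 569 CPM in normoxia, 443, 546 and 579.6 in hypoxia and 1762, 2074 and 2688 with TIFM. Clone B held 241, 248 and 244 CPM in normoxia, 250.3, 261 and 265 in hypoxia and 1048, 1226 and 1211 with TIFM. Every parental normoxia library lay below every other library of the study, and every clone A TIFM library lay above every other. From low to high, the order of the groups was parental normoxia, clone B normoxia, clone B hypoxia, parental hypoxia, clone A hypoxia, clone A normoxia, parental TIFM, clone B TIFM and clone A TIFM. Neighbours in that order overlapped in their libraries at the pair of clone A groups in regular medium and at the parental and clone B groups in TIFM, and the other neighbours did not.

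**Figure D1:**
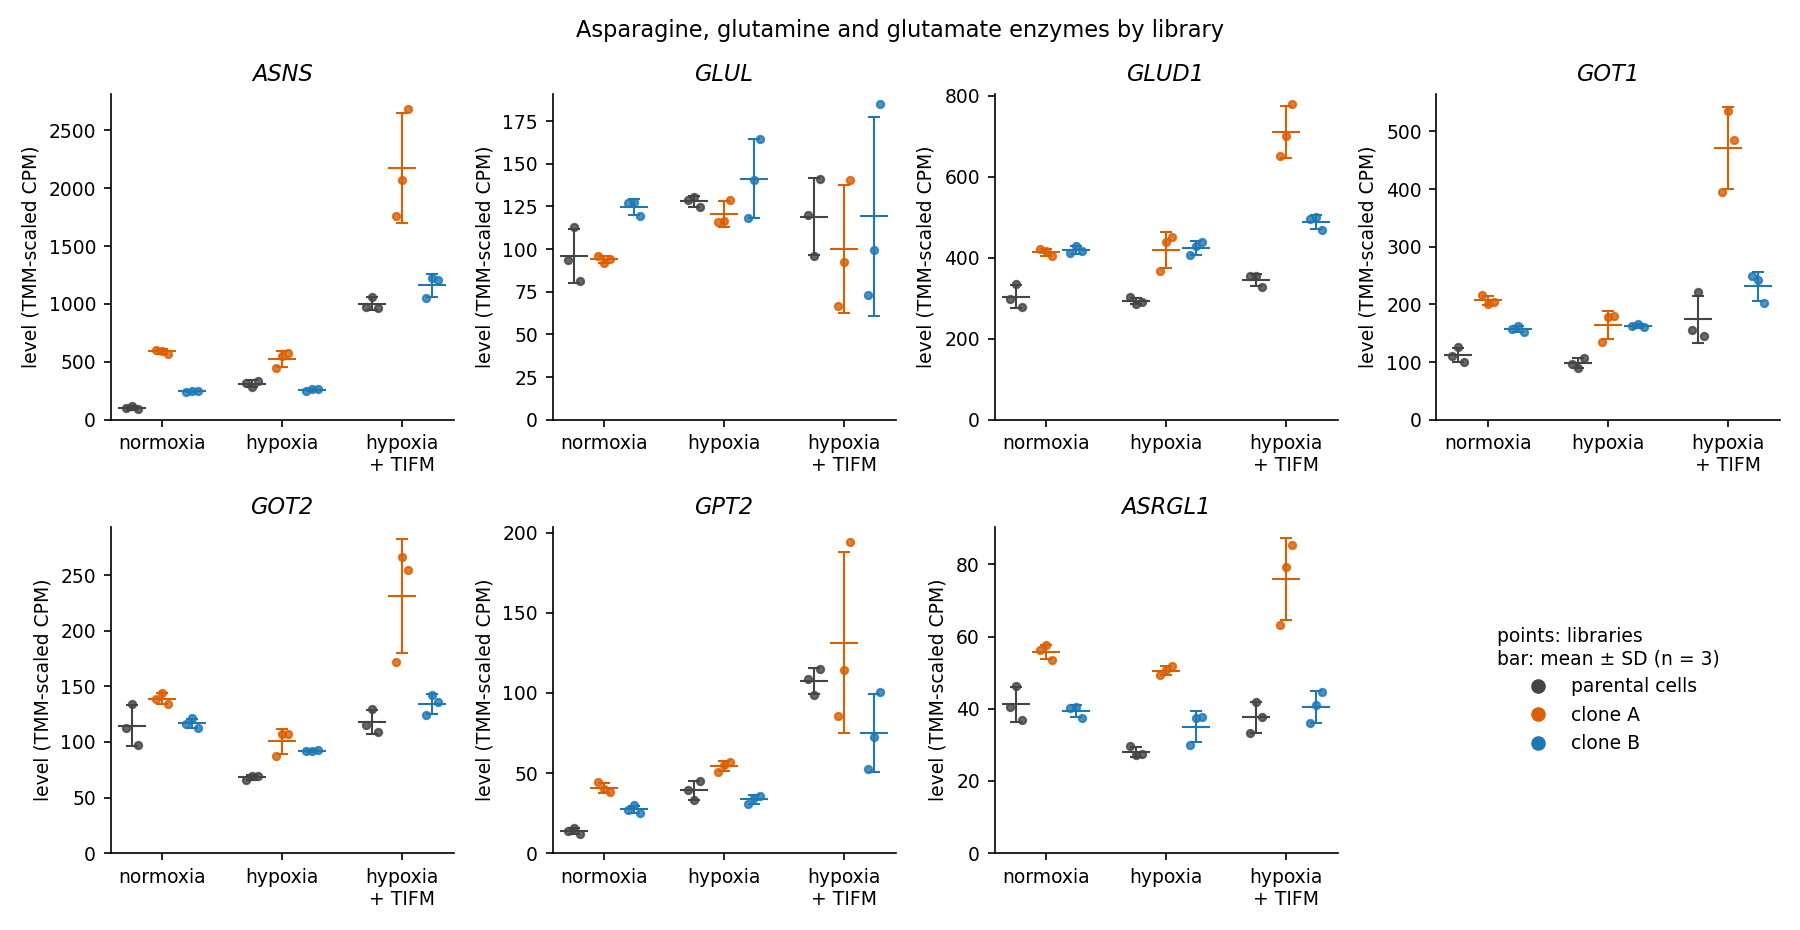
Levels of the 7 enzymes in each library (y axis, TMM-scaled CPM, from 0, with its own range for each gene) by condition (x axis) for parental cells, clone A and clone B; points are libraries and bars are the mean ± SD (n = 3). ASNS runs from 89.2 to 2688 CPM, while GLUL stays between 66.8 and 185 CPM.

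Hypoxia raised ASNS in parental cells by 3.09-fold (log2 change 1.63 ± 0.13, SE, adjusted p 5.61e-10). Clone A had a log2 change of -0.17 ± 0.12 (adjusted p 0.340) and that of clone B was 0.082 ± 0.12 (adjusted p 0.744), and neither passed the threshold of 0.05. The difference of these responses was tested as such. The log2 response of clone A minus the parental one was -1.80 ± 0.18 (95% interval -2.15 to -1.45, adjusted p 1.18e-07), and for clone B it was -1.55 ± 0.18 (95% interval -1.89 to -1.20, adjusted p 1.43e-06). Both differences use the same parental libraries. The clones started from a higher level: in normoxia ASNS was 5.87-fold higher in clone A than in parental cells (log2 difference 2.55 ± 0.13, adjusted p 4.30e-14) and 2.43-fold higher in clone B (1.28 ± 0.13, adjusted p 1.05e-08). In hypoxia clone A was still higher than the parental cells (log2 difference 0.75 ± 0.12, adjusted p 2.38e-05), whereas for clone B the log2 difference was -0.26 ± 0.12 (adjusted p 0.104). With only the 6 libraries of that comparison fitted, the last difference passed the threshold (adjusted p 0.00499).

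TIFM raised ASNS in all 3 genotypes against hypoxia in regular medium. The rise was 3.23-fold in parental cells (adjusted p 2.07e-10), 4.16-fold for clone A (adjusted p 6.90e-13) and 4.49-fold for clone B (adjusted p 1.40e-12). The response of clone A minus the parental response was 0.36 ± 0.18 on the log2 scale (95% interval 0.020 to 0.71, adjusted p 0.103), and that of clone B was 0.47 ± 0.18 (95% interval 0.13 to 0.82, adjusted p 0.0840). Neither difference passed the threshold, and both intervals lie above 0. Without clone A TIFM replicate 1, whose ASNS level was the lowest of its group, the clone A difference did pass (adjusted p 0.0115), and so did the clone B difference when only its own 12 libraries were fitted (adjusted p 0.0244). In TIFM clone A held more ASNS RNA than parental cells (log2 difference 1.12 ± 0.13, adjusted p 2.98e-08), and clone B differed by 0.21 ± 0.12 (adjusted p 0.163). Of the exonic bases of ASNS, 44.6% are shared with AC079781.5, a gene annotated on the same strand, and how reads from shared bases were counted is not given in the sources used here.

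ASRGL1 (ENSG00000162174; chr11:62337448-62393412, plus strand), the asparaginase, moved in the opposite direction to ASNS in parental hypoxia. Parental cells held 40.4, 46.4 and 36.9 CPM in normoxia, 29.7, 27.2 and 27.4 in hypoxia and 33.3, 41.8 and 37.7 with TIFM. Clone A held 56.2, 57.5 and 53.7 CPM, 49.3, 50.7 and 51.8 and 63.3, 79.2 and 85.3 in the same order of conditions, and clone B held 40.3, 40.4 and 37.4, 30.1, 37.4 and 37.7 and 36.0, 41.0 and 44.8. The 9 clone A libraries were all above the 18 libraries of the other genotypes. Hypoxia lowered ASRGL1 in parental cells by 1.47-fold (log2 change -0.55 ± 0.12, adjusted p 9.92e-04), and TIFM raised it by 1.34-fold in parental cells (adjusted p 0.00640) and 1.50-fold in clone A (adjusted p 1.15e-04). The hypoxia change was -0.14 ± 0.12 for clone A (adjusted p 0.421) and -0.17 ± 0.12 for clone B (adjusted p 0.413), and neither clone's response differed from the parental one past the threshold (adjusted p 0.159 and 0.239). Both of these differences passed when only their own 12 libraries were fitted (adjusted p 0.0134 and 0.0467). Clone A exceeded parental cells by 1.35-fold in normoxia, 1.80-fold in hypoxia and 2.02-fold in TIFM (adjusted p 0.00575, 2.58e-06 and 7.07e-08). Clone B exceeded them in hypoxia by 1.25-fold (adjusted p 0.0392), which no longer passed on leaving out any 1 of 5 among the 6 libraries (adjusted p 0.0531 to 0.149), the exception being clone B hypoxia replicate 1. Opposite-strand genes share 16.8% of the ASRGL1 exonic bases, and the strand setting of the counting is not given in the sources used here.

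GLUL (ENSG00000135821; chr1:182381704-182392206, minus strand), glutamine synthetase, stood apart from the others by its narrow range of group means, 1.50-fold from lowest to highest. Parental cells held 93.7, 113 and 81.5 CPM in normoxia, 129, 131 and 125 in hypoxia and 120.0, 95.8 and 141 with TIFM. Clone A held 96.0, 92.0 and 94.0 CPM, 116, 116 and 129 and 66.8, 92.6 and 140.4 in the same order, and clone B held 127, 128 and 119.5, 118, 141 and 165 and 73.3, 99.3 and 185. All neighbouring groups in the order of means overlapped. In TIFM, replicate 3 was the highest library in each genotype, and the coefficient of variation was 37.3% in clone A and 49.0% in clone B, against 2.13% and 3.59% in normoxia. Those replicates were also the libraries with the fewest counts of their groups, and their part in the spread was not tested. GLUL passed the threshold in none of the 21 contrasts with edgeR, of which none had an unadjusted p under 0.05, and in none with DESeq2. The hypoxia change was 0.42 ± 0.24 in parental cells (adjusted p 0.191), 0.36 ± 0.24 for clone A (adjusted p 0.292) and 0.18 ± 0.24 for clone B (adjusted p 0.697). Fitted on only the 6 libraries compared, without the widely spread TIFM libraries, the rise passed in parental cells (adjusted p 0.00248) and in clone A (adjusted p 0.00124). The TIFM change was -0.27 ± 0.24 for clone A and -0.25 ± 0.24 for clone B, but without replicate 3 of the clone's TIFM group it became -0.58 (adjusted p 0.0327) and -0.71 (adjusted p 0.00696). Without clone A TIFM replicate 3, clone A in TIFM also passed against parental cells (-0.59, adjusted p 0.0329) and clone B against clone A (0.60, adjusted p 0.0360). In normoxia, with only the 6 libraries fitted, clone B passed as higher than parental cells (0.37, adjusted p 0.0109) and than clone A (0.44, adjusted p 7.29e-09).

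GLUD1 (ENSG00000148672; chr10:87050486-87094866, minus strand), glutamate dehydrogenase, had no hypoxia change past the threshold and was higher in both clones under every condition. Parental cells held 297, 334 and 278 CPM in normoxia, 302, 285 and 292 in hypoxia and 355, 354 and 327 with TIFM. Clone A held 421, 416 and 404 CPM, 367, 439.8 and 450.0 and 652, 701 and 780.0 in the same order, and clone B held 412, 429 and 416, 405, 429 and 439 and 495, 501 and 469. Each of the 18 clone libraries was above each of the 9 parental libraries. In normoxia the clones were close to each other, 1.36-fold above parental cells in clone A and 1.38-fold in clone B (adjusted p 2.76e-04 and 2.01e-04). The difference between the clones was 0.018 ± 0.088 on the log2 scale in normoxia, with a 95% interval of -0.15 to 0.19. In hypoxia the excess was 1.43-fold and 1.45-fold (adjusted p 3.71e-05 and 2.67e-05). The 95% interval of the hypoxia change was -0.22 to 0.12 in parental cells, -0.15 to 0.19 in clone A and -0.15 to 0.19 in clone B.

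TIFM set the clones apart in GLUD1. Clone A rose by 1.70-fold (log2 change 0.76 ± 0.089, adjusted p 3.75e-08), against 0.24 ± 0.088 in parental cells (adjusted p 0.0334) and 0.20 ± 0.088 for clone B (adjusted p 0.0562). The clone B change passed with DESeq2 (adjusted p 0.0315) and with only its 6 libraries fitted (adjusted p 0.0358). The clone A response exceeded the parental one by 0.53 ± 0.12 on the log2 scale (adjusted p 0.00169), and the clone B response minus that of clone A was -0.56 ± 0.12 (adjusted p 0.00125). The parental call was lost without any 1 of 5 of its 6 libraries (adjusted p 0.0542 to 0.107), the exception being parental TIFM replicate 3, and also without the filter on low counts (adjusted p 0.0663). SHLD2 on the opposite strand shares 13.2% of the GLUD1 exonic bases. The near-identical copy GLUD2 had 414 counts over all 27 libraries, and 5 pseudogenes of GLUD1 are annotated, so reads shared with such copies are uncertain. ASNS, GLUL and GOT2 have 4 annotated pseudogenes each, and the same limit holds for them.

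**Figure D2:**
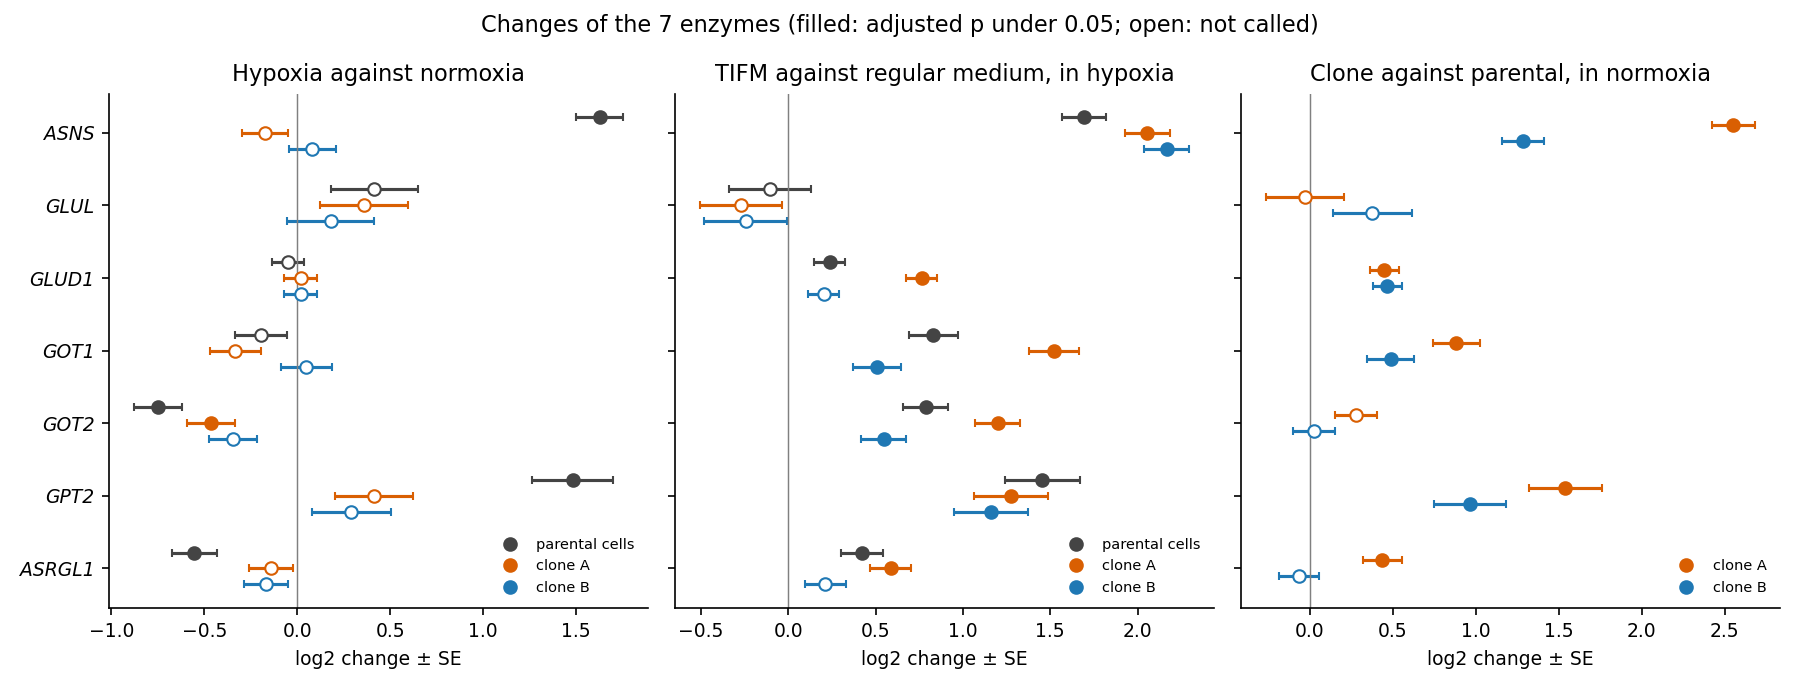
Log2 changes (x axis, ± SE) of the 7 enzymes (y axis) for hypoxia against normoxia, TIFM against regular medium in hypoxia, and clone against parental cells in normoxia; filled points passed an adjusted p under 0.05 and open points did not. At this threshold ASNS and GPT2 rise and ASRGL1 falls in hypoxia in parental cells alone. In TIFM ASNS, GOT1, GOT2 and GPT2 are filled in every genotype.

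GOT1 (ENSG00000120053; chr10:99396870-99431569, minus strand), the cytosolic aspartate aminotransferase, rose in TIFM in all genotypes and was higher in both clones than in parental cells under each condition. Parental cells held 109.9, 126 and 100.4 CPM in normoxia, 96.3, 89.8 and 107 in hypoxia and 156, 221 and 145 with TIFM. Clone A held 216, 201 and 204 CPM, 135, 178 and 179 and 394, 536 and 484 in the same order, and clone B held 157, 162 and 152, 162, 166 and 160.0 and 248, 242 and 203. The clone A TIFM libraries lay above all other libraries, and in regular medium no parental library reached a clone library. TIFM raised GOT1 by 1.78-fold in parental cells, 2.87-fold in clone A and 1.42-fold in clone B (adjusted p 3.62e-05, 7.98e-10 and 0.00328). The clone A response was above the parental one by 0.69 ± 0.20 on the log2 scale (adjusted p 0.00692), which was 0.0586 when only those 12 libraries were fitted. Hypoxia changed GOT1 in no genotype past the threshold with edgeR, with log2 changes of -0.20 ± 0.14, -0.33 ± 0.14 and 0.050 ± 0.14 in parental cells, clone A and clone B (adjusted p 0.302, 0.0865 and 0.869). The clone A change passed with only the 6 libraries compared (adjusted p 0.0305).

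In normoxia GOT1 was 1.84-fold higher in clone A than in parental cells (adjusted p 1.76e-05) and 1.40-fold higher in clone B (adjusted p 0.00972). In hypoxia the excess was nearly the same in both clones, 1.68-fold and 1.66-fold (adjusted p 1.09e-04 and 1.58e-04). In TIFM it was 2.71-fold for clone A (adjusted p 2.96e-09) and 1.33-fold for clone B (adjusted p 0.0172). The clone B call in normoxia was lost without parental normoxia replicate 3 (adjusted p 0.0645), and the one in TIFM without parental TIFM replicate 1 or 3 or clone B TIFM replicate 1 or 2 (adjusted p 0.0560 to 0.114) and with only the 6 libraries compared (adjusted p 0.0683). AL391684.1 on the opposite strand shares 19.3% of the GOT1 exonic bases.

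GOT2 (ENSG00000125166; chr16:58707131-58734357, minus strand), the mitochondrial partner of GOT1, fell in hypoxia in parental cells and clone A, and rose in TIFM in all genotypes. Parental cells held 113, 134 and 97.6 CPM in normoxia, 65.9, 69.3 and 69.5 in hypoxia and 115, 129 and 109 with TIFM. Clone A held 139, 144 and 135 CPM, 87.7, 107 and 107 and 172, 267 and 255 in the same order, and clone B held 116, 121 and 113, 91.6, 91.6 and 92.5 and 124, 142 and 136. In each genotype the hypoxia libraries lay below the normoxia libraries and below the TIFM libraries. The fall in hypoxia was 1.68-fold in parental cells (log2 change -0.75 ± 0.13, adjusted p 8.33e-05) and 1.38-fold for clone A (-0.47 ± 0.13, adjusted p 0.0106), while the log2 difference for clone B was -0.34 ± 0.13 (adjusted p 0.0900). The responses of the clones were not shown to differ from the parental one, with 95% intervals of the difference of -0.069 to 0.64 for clone A and 0.052 to 0.76 for clone B. The clone B interval lies above 0, and that difference passed with only its own 12 libraries fitted (adjusted p 0.0183). The clone A call did not hold without its hypoxia replicate 1 (adjusted p 0.0750), and the clone B change passed with only its 6 libraries (adjusted p 9.26e-04).

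TIFM raised GOT2 by 1.73-fold in parental cells, 2.29-fold in clone A and 1.46-fold in clone B (adjusted p 2.55e-05, 1.08e-08 and 8.65e-04). The clone A response minus the parental one was 0.41 ± 0.18 on the log2 scale (adjusted p 0.0746). It passed with DESeq2 (adjusted p 0.0422), without parental TIFM replicate 2 (adjusted p 0.0430) and without clone A TIFM replicate 1 (adjusted p 0.00156). The clone B response minus that of clone A was -0.65 ± 0.18 (adjusted p 0.00634), and this call was lost with only its own 12 libraries fitted (adjusted p 0.0556). In normoxia the clones differed from parental cells by 0.28 ± 0.13 (adjusted p 0.104) and 0.023 ± 0.13 (adjusted p 0.928) on the log2 scale. In hypoxia, where the parental level was lowest, they were 1.48-fold and 1.35-fold higher (adjusted p 9.65e-04 and 0.0101), and in TIFM clone A was 1.96-fold higher (adjusted p 4.26e-07) while clone B differed by 0.19 ± 0.13 (adjusted p 0.236). Without parental normoxia replicate 2 the clone A difference in normoxia passed (adjusted p 0.0299).

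GPT2 (ENSG00000166123; chr16:46884378-46931297, plus strand), the mitochondrial alanine aminotransferase, followed ASNS at a lower level. Parental cells held 13.9, 15.9 and 12.3 CPM in normoxia, 39.5, 33.2 and 44.9 in hypoxia and 108, 98.9 and 115 with TIFM. Clone A held 44.2, 40.1 and 38.1 CPM, 50.8, 54.9 and 57.2 and 85.6, 114 and 194 in the same order, and clone B held 26.98, 29.9 and 25.3, 30.6, 34.4 and 35.6 and 52.4, 72.3 and 101. Every TIFM library but clone B replicate 1 lay above every library in regular medium, and in TIFM replicate 3 was the highest in each genotype, as for GLUL. Hypoxia raised GPT2 in parental cells by 2.79-fold (log2 change 1.48 ± 0.22, adjusted p 1.18e-05), against 0.41 ± 0.21 for clone A (adjusted p 0.164) and 0.29 ± 0.21 for clone B (adjusted p 0.423). Fitted on their own 6 libraries, both clone changes passed (adjusted p 0.00163 and 0.0116). The clone response minus the parental one was -1.07 ± 0.30 for clone A (adjusted p 0.0297) and -1.19 ± 0.30 for clone B (adjusted p 0.0184). The first call was lost without any 1 of 9 of its 12 libraries (adjusted p 0.0528 to 0.0918), the exceptions being parental normoxia replicate 2, parental hypoxia replicate 2 and clone A normoxia replicate 3, and the second without parental normoxia replicate 3, parental hypoxia replicate 3 or clone B normoxia replicate 2 (adjusted p 0.0561 to 0.0609).

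TIFM raised GPT2 by 2.74-fold in parental cells, 2.42-fold in clone A and 2.24-fold in clone B (adjusted p 5.82e-06, 8.79e-06 and 5.47e-05). In normoxia GPT2 was 2.91-fold higher in clone A (adjusted p 3.66e-06) and 1.95-fold higher in clone B (adjusted p 0.00122) than in parental cells. In hypoxia the log2 differences were 0.47 ± 0.21 for clone A (adjusted p 0.0755) and -0.23 ± 0.21 for clone B (adjusted p 0.438). The clone A one passed with only the 6 libraries compared (adjusted p 0.00522). In TIFM clone A differed from parental cells by 0.29 ± 0.21 (adjusted p 0.233), their libraries overlapped, and leaving out 1 library gave values from -0.12, without clone A replicate 3, to 0.52, without clone A replicate 1 (adjusted p 0.0221). In TIFM clone B was 1.43-fold lower than parental cells (adjusted p 0.0430), a call that DESeq2 did not make (adjusted p 0.0543) and that was lost with RLE scaling, without the filter, with only the 6 libraries compared, and without clone B TIFM replicate 1 or 2 or parental TIFM replicate 1 or 3 (adjusted p 0.0826 to 0.294).

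Counted over the set, hypoxia in parental cells changed 4 of the 7 enzymes, where 30.2% of all tested genes changed. ASNS and GPT2 rose, and GOT2 and ASRGL1 fell. In clone A, GOT2 alone changed, 1 of 7 against 22.2% of all genes. In clone B, 0 of 7 passed with edgeR and with DESeq2, against 9.30% of all genes, and 1 of 7 had an unadjusted p under 0.05. The hypoxia response differed from the parental one for ASNS and GPT2 in clone A, 2 of 7, both lower, where 6.23% of all genes differed and 4.04% were lower. In clone B it was lower for ASNS and GPT2 again, 2 of 7, where 4.73% of all genes differed and 3.24% were lower. The clones were not shown to differ from each other in this response for any of the 7 enzymes, with edgeR, with DESeq2 or at an unadjusted p under 0.05, and edgeR called 0 of all genes there, DESeq2 called 34, and 870 had an unadjusted p under 0.05.

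In TIFM all edgeR calls were rises. Of the 7 enzymes 6 rose in parental cells, where 42.2% of all genes were called and 21.8% were called higher. In clone A 6 of 7 rose, where 67.2% were called and 4596 of 13943 genes were called higher. In clone B 4 of 7 rose, namely ASNS, GPT2, GOT1 and GOT2, where 53.7% were called and 25.9% called higher. The median log2 change of the 7 enzymes was 0.79 for the parental line, 1.20 for clone A and 0.51 for clone B, while the median over all tested genes lay between -0.034 and 0.036 in each of the 21 contrasts. The TIFM response of clone A exceeded the parental one for GLUD1 and GOT1, 2 of 7, where 38.9% of all genes differed and 19.3% were higher. For clone B, 0 of 7 differed with edgeR and with DESeq2, against 10.4%, and 1 of 7 had an unadjusted p under 0.05. The summed level of the 7 epithelial and Panc1 markers, VIM among them, was also lowest in TIFM. It was 5218 to 7035 CPM for the parental line, 2842 to 4634 for clone A and 2722 to 3650 for clone B. Single markers did not all fall. With TIFM 2 of the 7 markers rose and 5 fell for the parental line. For either clone 1 rose and 5 fell. The part of these markers in these results was not tested.

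Against parental cells, clone A was higher in 5 of 7 enzymes in normoxia (31.6% of all genes called, 15.9% higher), in 5 of 7 in hypoxia (41.4% called, 20.5% higher) and in 5 of 7 in TIFM (61.7% called, 30.9% higher). ASNS, ASRGL1, GLUD1 and GOT1 were called in each of these, with GPT2 in normoxia and GOT2 in hypoxia and in TIFM. Of the epithelial and Panc1 markers, 5 of 7 were lower in clone A than in parental cells in each condition. Others were higher, 2 of 7 in normoxia and 1 of 7 in hypoxia. The median log2 differences were -1.18 in normoxia, -1.45 in hypoxia and -0.44 in TIFM. In clone B 1 of 7 was lower in normoxia, 2 in hypoxia and 6 in TIFM, and the part of these markers in the results was not tested. Clone B was higher in 4 of 7 in normoxia (26.5% called, 13.2% higher), namely ASNS, GLUD1, GOT1 and GPT2, and in 4 of 7 in hypoxia (35.9% called, 16.9% higher), namely ASRGL1, GLUD1, GOT1 and GOT2. In TIFM clone B was higher in GLUD1 and GOT1, 2 of 7, and lower in GPT2, 1 of 7 (47.5% called, 22.1% higher and 25.4% lower). Clone B was lower than clone A in ASNS, ASRGL1 and GOT1 in normoxia, 3 of 7 (21.5% of all genes called, 9.83% lower). The GPT2 difference there passed with only the 6 libraries compared (adjusted p 3.71e-07), as did that of GOT2 (adjusted p 2.34e-04). In hypoxia it was lower in ASNS, ASRGL1 and GPT2, 3 of 7 (25.1% called, 12.2% lower), and in TIFM in all but GLUL, 6 of 7 (56.1% called, 29.4% lower). In TIFM these gaps ran from 1.46-fold for GLUD1 to 2.04-fold for GOT1. The GPT2 gap in TIFM was lost without clone A TIFM replicate 3 (adjusted p 0.0666) and with only the 6 libraries compared (adjusted p 0.108). The GPT2 gap in hypoxia was lost without clone A hypoxia replicate 3 or clone B hypoxia replicate 1 (adjusted p 0.0537 to 0.0744). The GOT1 gap in normoxia was lost with RLE scaling (adjusted p 0.0546) and without any 1 of its 6 libraries (adjusted p 0.0762 to 0.123). The TIFM response of clone B fell short of that of clone A for GLUD1, GOT1 and GOT2, 3 of 7, where 40.0% of all genes differed and 21.3% were lower.

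Levels of different genes were compared per kilobase of exon. In parental normoxia GLUD1 led at 86.1 ± 8.07 CPM per kb. GOT1 followed at 33.3 ± 3.83, GOT2 at 30.5 ± 4.87 and ASNS at 22.5 ± 3.00 CPM per kb, and GLUL, ASRGL1 and GPT2 were lower at 10.6 ± 1.75, 8.99 ± 1.05 and 2.21 ± 0.284 CPM per kb. In clone A in TIFM the order was different: ASNS led at 488 ± 106 CPM per kb, ahead of GLUD1 at 202 ± 18.4, GOT1 at 139.9 ± 21.2 and GOT2 at 61.4 ± 13.7. GPT2 reached 20.7 ± 8.88, ASRGL1 16.6 ± 2.49 and GLUL 11.1 ± 4.13 CPM per kb, so the GLUL mean was the lowest of the 7 on this scale. That place depends on the exon length used, 9032 bases for GLUL and 4586 for ASRGL1. In CPM without the length, GLUL in clone A in TIFM (99.9) stood above ASRGL1 (75.9).

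The pattern of each enzyme over the 9 groups was compared with 9759 tested genes of at least 5 CPM on average, by the Pearson correlation of the mean log2 CPM. The closest to ASNS were PSAT1 (r = 0.994), a serine synthesis enzyme that takes its amino group from glutamate, ATF4 (0.988) and RPL31 (0.983), a ribosomal protein gene. The closest to GPT2 were TRIM8 (0.979), PSAT1 (0.973) and TPT1 (0.969). Within the set, ASNS and GPT2 correlated at 0.964, GLUD1 and GOT1 at 0.954, and GOT1 and GOT2 at 0.905, while GLUL had negative correlations with the other 6, from -0.71 with GOT2 to -0.059 with GPT2. The closest genes to GLUL were PINK1 (0.957), a kinase of mitochondrial quality control, EVI5L (0.935) and PACS1 (0.935). Over the 27 libraries their correlations with GLUL were lower, at 0.750, 0.515 and 0.818. For GLUD1 they were MRTFA (0.986), FAHD2A (0.983) and PODXL2 (0.976), for GOT1 DXO (0.988), ZBTB39 (0.982) and HMGA1 (0.982), for GOT2 CCT4 (0.985), ERH (0.985) and CDCA4 (0.982), and for ASRGL1 SSRP1 (0.992), HROB (0.988) and DTYMK (0.979). These correlations describe 9 means that share libraries and scaling across genes.

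**Figure D3:**
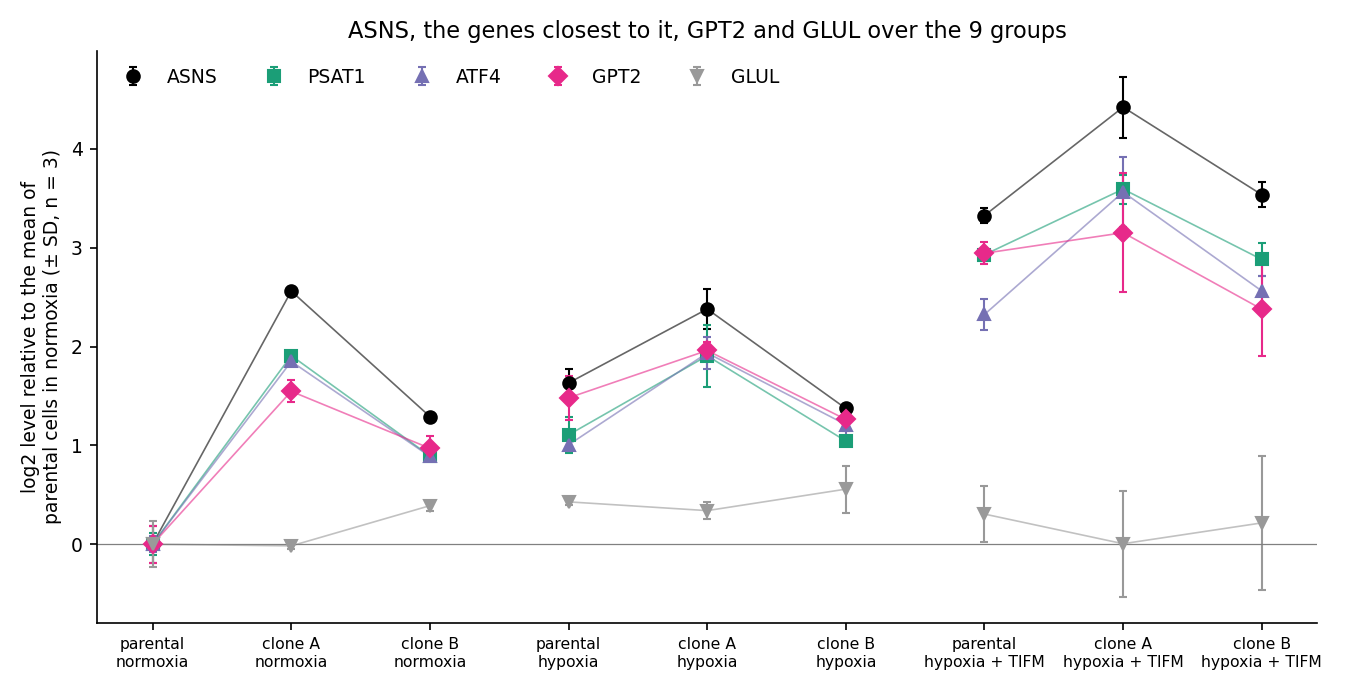
Log2 level relative to the parental normoxia mean (y axis, mean ± SD, n = 3) over the 9 groups (x axis) for ASNS, PSAT1, ATF4, GPT2 and GLUL; lines join the genotypes within a condition. In normoxia ASNS, PSAT1, ATF4 and GPT2 are highest in clone A and GLUL is highest in clone B.

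The amino acid response list held 20 genes known to respond to or act with ATF4, of which 19 were tested and none is one of the 7 enzymes. The counts on this and the following lists stand beside the shares of all genes called in the same comparisons, 30.2%, 22.2% and 9.30% for hypoxia and 42.2%, 67.2% and 53.7% for TIFM in parental cells, clone A and clone B, and 31.6% and 26.5% for clone A and clone B against parental cells in normoxia. In parental hypoxia 11 rose and 0 fell, with a median log2 change of 0.68, led by NUPR1 (1.80), SLC7A11 (1.66), PHGDH (1.62) and TRIB3 (1.21). In clone A 1 rose and 1 fell, NUPR1 (0.79) and MTHFD2 (-0.34), and in clone B 2 rose, NUPR1 (0.82) and ATF3 (0.65). The hypoxia response was below the parental one for 7 of 19 in clone A and for 4 of 19 in clone B, PHGDH and PSAT1 among them in both (-1.92 and -1.09 in clone A, -1.85 and -0.96 in clone B on the log2 scale). Of all genes, 6.23% and 4.73% differed in these comparisons, and 4.04% and 3.24% were lower. In normoxia 14 of 19 were higher in clone A and 12 in clone B than in parental cells (0 and 2 were lower), where PHGDH had the largest difference (2.97 and 1.52) and ATF4 itself differed by 1.85 and 0.89. In hypoxia clone A was higher than parental cells in 11 and lower in 2, and clone B higher in 2 and lower in 3. Of all genes, 41.4% were called for clone A (20.5% higher) and 35.9% for clone B (16.9% higher). In TIFM clone A was higher in 11 and lower in 3, whereas clone B was higher in 1 and lower in 10, with a median log2 difference of -0.32. The shares of all genes called there were 61.7% for clone A (30.9% higher) and 47.5% for clone B (22.1% higher and 25.4% lower). With TIFM 17 of 19 rose in the parental line, 14 for clone A and 14 for clone B. SLC7A11, the cystine and glutamate exchanger, rose by 2.23, 2.09 and 2.98 on the log2 scale. Those that fell were SESN2 (-0.61) and EIF2AK4 (-0.32) in clone A and SESN2 (-0.68) in clone B, SESN2 being a leucine sensor and EIF2AK4 the kinase that senses uncharged transfer RNA.

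Among 16 carriers of glutamine, glutamate, aspartate and neutral amino acids, 13 were tested. In hypoxia 6 rose in parental cells, 2 for clone A, where SLC1A4 fell, and 1 for clone B. SLC38A2, a sodium-coupled neutral amino acid carrier, rose by 1.25, 1.34 and 1.15 on the log2 scale, and its clone responses were not shown to differ from the parental one (adjusted p 0.944 and 0.952). TIFM raised 8 and lowered 2 in parental cells, raised 8 and lowered 2 in clone A, and raised 7 and lowered 2 in clone B. SLC1A4 rose by 2.44, 2.13 and 1.77 in these genotypes, and SLC1A5, a main route of glutamine uptake, by 1.67, 2.52 and 1.47. SLC38A7, a lysosomal glutamine carrier, fell by 0.50, 0.95 and 0.88. SLC7A11, SLC3A2 and SLC7A5 stand on this list and on the amino acid response list.

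Of 14 other asparagine and aspartate genes, 11 were tested, and hypoxia changed 5 in parental cells (2 higher), 2 in clone A and 2 in clone B, all 4 of these changes being falls. ASS1, which joins aspartate to citrulline, rose in parental hypoxia (0.80, adjusted p 1.85e-04) and in TIFM in all genotypes (1.96, 3.02 and 1.80), yet in normoxia it was lower in the clones than in parental cells (-0.81 and -0.50, adjusted p 1.67e-04 and 0.0142). TIFM raised 4 and lowered 2 of the 11 in parental cells, raised 4 and lowered 4 in clone A, and raised 4 and lowered 2 in clone B. Of 12 glutamine-using enzymes, 11 were tested, and in TIFM 2 rose and 3 fell in parental cells, 4 rose and 5 fell in clone A, and 4 rose and 4 fell in clone B. CTPS1, which makes CTP with glutamine nitrogen, fell by 0.98, 1.72 and 1.96 on the log2 scale, and GFPT1, the entry enzyme of hexosamine synthesis, rose by 1.27, 0.63 and 1.19. In hypoxia 1 rose and 4 fell in parental cells, 1 rose and 4 fell in clone A, and 2 rose and 3 fell in clone B, GFPT2 rising in each (1.94, 1.33 and 0.72).

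Of 18 other glutamate enzymes and transaminases, 14 were tested. In normoxia 6 were higher and 2 lower in clone A, and 6 were higher and 1 lower in clone B. BCAT1, the cytosolic branched-chain aminotransferase, had the largest difference of this list in both clones, 5.29 ± 0.17 and 4.07 ± 0.16 on the log2 scale (adjusted p 2.79e-18 and 2.21e-16). In TIFM 3 rose and 1 fell in parental cells, 6 rose and 4 fell in clone A, and 5 rose and 2 fell in clone B. ALDH18A1, the first enzyme of proline synthesis from glutamate, rose by 1.81 for clone A and by 1.01 for clone B. Of 8 genes of the malate-aspartate shuttle and mitochondrial carriers, 7 were tested. TIFM raised 5 and lowered 1 in clone A, raised 0 and lowered 2 in parental cells, and raised 0 and lowered 3 in clone B, by edgeR. The clone A response exceeded the parental one for 6 of the 7, MDH2 (0.74), SLC25A11 (0.78), SLC25A12 (0.78) and SLC25A22 (0.87) among them. In that comparison GOT1 and GLUD1 were called, 38.9% of all genes differed and 19.3% were higher. Hypoxia lowered 1 in parental cells and 2 in clone A.

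**Figure D4:**
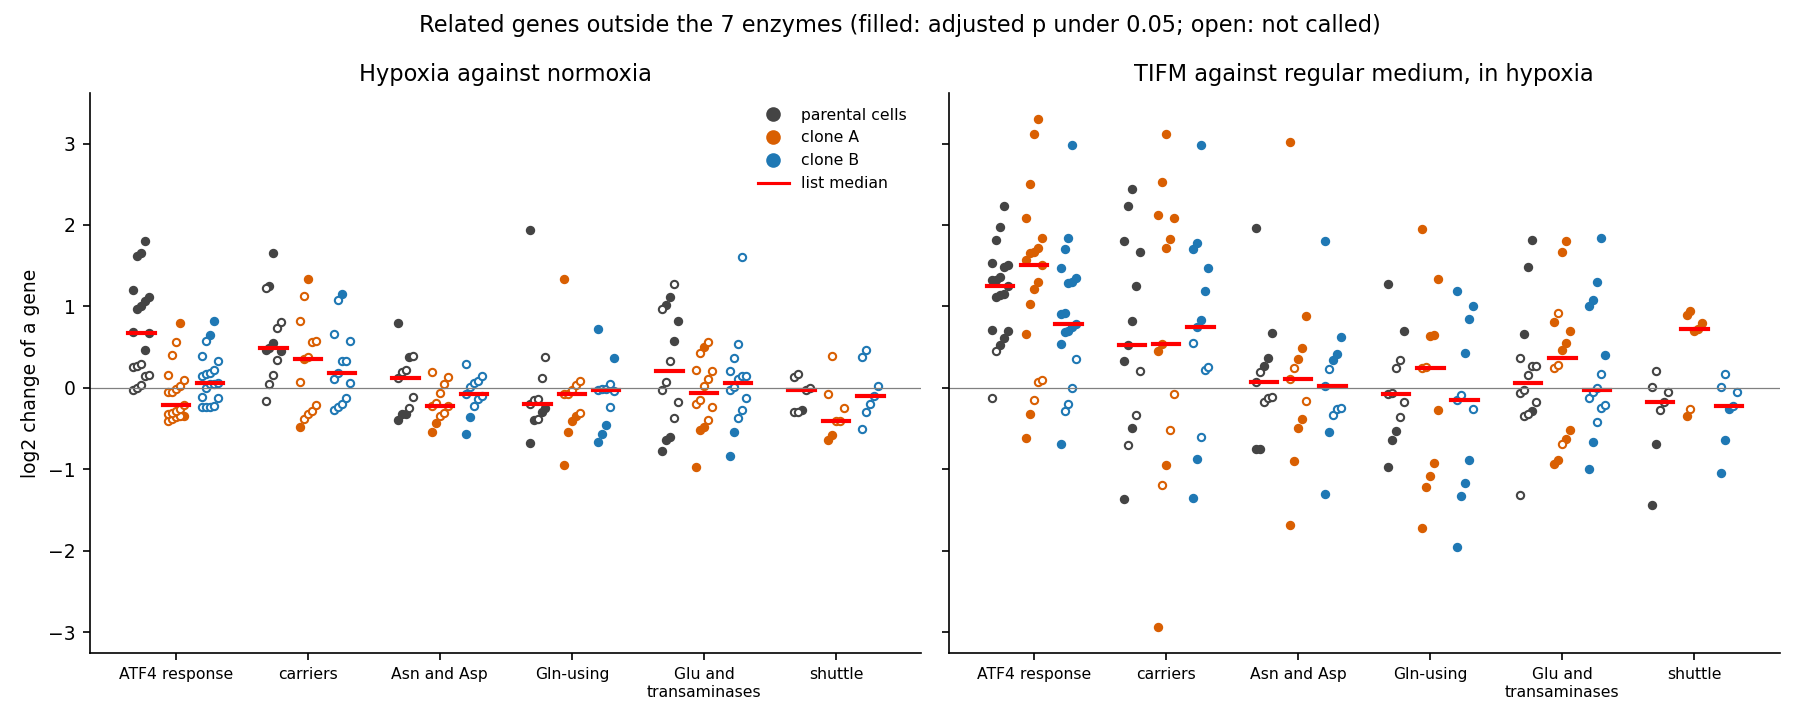
Log2 change of each tested gene (y axis) on 6 lists of related genes (x axis) in hypoxia and in hypoxic TIFM for parental cells, clone A and clone B; filled points passed an adjusted p under 0.05, open points did not, and red lines are list medians. The amino acid response list has a median of 0.68 in parental hypoxia and of 1.25, 1.51 and 0.78 in TIFM in parental cells, clone A and clone B.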

How the data were processed

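PolyA RNA of 27 libraries was analysed from the table deposited by the authors, which holds raw counts per Ensembl gene. Per the submitters' processing notes, HISAT2, featureCounts and GRCh38 were used, with versions, strand setting and annotation not given in the sources used here. All values were whole numbers. Symbols were found for 21479 of 21487 identifiers, 3417 genes had no count, and coordinates and shared exons are from GENCODE v29.

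All 27 libraries entered 1 fit with edgeR 4.0.16 in R 4.3.3 (filterByExpr with a minimum count of 10 and a minimum total of 15, TMM scaling, 1 coefficient per group, robust quasi-likelihood F test). Adjusted p is Benjamini-Hochberg over 13943 genes per contrast, called under 0.05, for 21 contrasts. Fold changes are log2 values. Their SE was derived from the test, as the absolute log2 change divided by the square root of F. The 95% intervals are normal ones from that SE. They are therefore somewhat narrower than the F test, and can exclude 0 where its unadjusted p is above 0.05. The biological coefficient of variation was 14.1%, and the script was tested on simulated data. A hypoxia or TIFM response of a clone was compared with another genotype's by the interaction contrast. Alternatives were RLE scaling, no filter, DESeq2 1.42.0, fitting only the libraries compared, a replicate block and leaving out each library. Reads carry no molecular identifiers, so errors cover these libraries only.

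All 7 members are named, with the 3 genes whose group means correlate best with each, and up to 4 called genes per list and direction with the largest changes in a contrast, or a gene followed across contrasts. The members and gene lists were chosen with earlier results of these data known. A listed marker gene is not reported here.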

Additional observations from a re-analysis of the deposited data

Results flagged for a closer look

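A response that differed between genotypes by the interaction contrast was found for 5 of the 7 enzymes (edgeR, adjusted over all tested genes). Of all genes, 6.23% and 4.73% differed in the hypoxia response of clone A and clone B from the parental one, 38.9% in the TIFM response of clone A minus parental and 40.0% in that of clone B minus clone A. For the hypoxia response, ASNS in clone A minus parental was -1.80 ± 0.18 on the log2 scale (SE, adjusted p 1.18e-07) and in clone B minus parental -1.55 ± 0.18 (adjusted p 1.43e-06). GPT2 gave -1.07 ± 0.30 (adjusted p 0.0297) and -1.19 ± 0.30 (adjusted p 0.0184) in the same comparisons, and was less firm, as leaving out single libraries moved its adjusted p above 0.05. For the TIFM response, GLUD1 in clone A minus parental was 0.53 ± 0.12 (adjusted p 0.00169) and GOT1 was 0.69 ± 0.20 (adjusted p 0.00692). This GOT1 difference did not hold with only the libraries compared (adjusted p 0.0586). In clone B minus clone A, GLUD1 was -0.56 ± 0.12 (adjusted p 0.00125), GOT1 -1.01 ± 0.20 (adjusted p 3.84e-04) and GOT2 -0.65 ± 0.18 (adjusted p 0.00634), the last not holding with only the libraries compared (adjusted p 0.0556). Each pair of differences shares libraries: the clone comparisons share the parental cells, and both TIFM comparisons share clone A.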

How the results depend on the processing

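No change of sign was found for a called value of the 7 enzymes under the alternatives run. Of 147 values, 145 stayed on their side of the threshold with RLE scaling, 144 without the filter, 143 with DESeq2 and 125 with only the libraries compared, where 17 values gained a call and 5 lost it. Fitted that way, calls in hypoxia went from 5 to 11 of 21 and calls in the difference of the hypoxia response from 4 to 7 of 14; the cause was not tested. Leaving out 1 library at a time gave 4 to 5 calls in hypoxia, 15 to 17 of 21 in TIFM, 24 to 27 of 42 between clones and parental cells, 2 to 4 of 14 in the hypoxia response, 2 to 4 of 14 in the TIFM response and 14 to 16 of 35 between the clones. The 2 calls in the hypoxia response came without parental normoxia replicate 3 and without parental hypoxia replicate 3, and the 4 in the TIFM response without clone A TIFM replicate 1. Replicate numbers showed no common pairing over all groups. Of 108 pairs of libraries with the same number, 34 had a correlation of deviations over 0.1. The median was -0.00804 and the range -0.563 to 0.653. For 12 of 27 libraries, the mean correlation with libraries of other groups was highest for those of their own number. These values pool all conditions, so they cannot exclude a batch shared within a condition. With the replicate block the counts were 5, 16, 26, 4, 3 and 16 in the order above. Over the 27 libraries, 9 of the 21 genes most like a member were the same. The clone B minus clone A difference of GPT2 in normoxia (adjusted p 0.0361) and the TIFM response of GOT2 in clone A minus parental (adjusted p 0.0469) gained a call with the block.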

Other observations

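The tested genes next to each enzyme on its chromosome were compared between clones and parental cells in normoxia. Around ASNS, the 20 nearest genes on chromosome 7 had a median log2 difference of 0.077 for clone A and -0.054 for clone B, against 2.55 and 1.28 for ASNS. Around GPT2 the medians were -0.050 and -0.053, against 1.54 and 0.96. Around GOT1 they were -0.18 and -0.097, against 0.88 and 0.49. Around GLUD1 they were 0.11 and 0.26, against 0.45 and 0.47, and with 5 tested genes on each side 0.12 and 0.56. In clone B 5 of the 20 neighbours of GLUD1 were called higher and 0 lower, and 3 of the nearest 10, which ran from -0.32 to 1.28. Of all tested genes, 26.5% were called and 13.2% were higher in that comparison. Called neighbours were not particular to GLUD1. In clone B 3 of the 20 around ASNS were higher and 6 lower. In clone A 3 of the 20 around GOT1 were higher and 7 lower, where 31.6% of all genes were called. Around GLUL, GOT2 and ASRGL1 the medians over 20 genes lay between -0.24 and 0.10.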
